A study of Mus musculus with 12 samples.

Results

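The nuclear genes of oxidative phosphorylation were followed through the 4 groups of this study of topoisomerase I in mouse cortical neurons. They were taken by gene symbol from the count table: every symbol that starts with Ndufa, Ndufb, Ndufc, Ndufs or Ndufv and a digit, with Uqcr, with Atp5 or with Cox4 to Cox8, and the 4 genes Sdha, Sdhb, Sdhc and Sdhd. Of 23893 genes in the table, 84 matched, and 77 had a mean of at least 1 CPM (counts scaled to a common library total) over the 12 libraries. By the start of the symbol alone, 37 of these 77 genes were assigned to complex I, 4 to complex II, 8 to complex III, 13 to complex IV and 15 to complex V. The assignment was not checked gene by gene, so a complex here is a group of symbols. It can include genes whose product belongs elsewhere. RefSeq now names Atp5s and Atp5sl, which are among the 15, Dmac2l and Dmac2, and the latter is known as an assembly factor of complex I. Just above the limit of 1 CPM lay Cox6c at 1.09 CPM and Ndufa4l2 at 1.24 CPM, and just under it lay Cox7a1 at 0.74 CPM and Atp5l at 0.48 CPM. The other genes under the limit were Atp5g2, Cox4i2, Cox7b2, Cox8b and Cox8c, of which the last 2 had no count in any library.

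Cortical neurons from mouse embryos of E13.5 to E15.5 (strain C57BL6 in the labels) were infected at day in vitro (DIV) 3 with a lentivirus under the CaMKIIα promoter. At DIV 15 they received vehicle (0.003% DMSO) or 300 nM topotecan, an inhibitor that traps topoisomerase I on DNA, and they were harvested 3 days later. In the study's methods all cultures were Top1 fl/fl, WT cultures carried a tdTomato virus and Top1 cKO cultures a tdTomato-P2A-CRE virus, whereas the labels call the control genotype wild-type. Polyadenylated RNA was sequenced from 3 libraries of each combination, called WT-Veh and WT-Topot for the control virus, and Top1 cKO-Veh and Top1 cKO-Topot for the CRE virus. The promoter limits CRE to neurons and the labels give a transduction of about 85 to 90%, so a Top1 cKO culture still held cells with an intact Top1.

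Oxidative phosphorylation takes place on the inner mitochondrial membrane. Complexes I and II feed electrons from NADH and succinate into the chain, complex III passes them to cytochrome c, complex IV hands them to oxygen, and complex V makes ATP from the proton gradient that complexes I, III and IV build. The subunits are encoded partly by the mitochondrial genome and mostly by the nuclear genes described here, and neurons depend on this pathway for the ATP that ion pumping and synaptic transmission use. The table held no genes of the mitochondrial genome, so those subunits were not analysed here.

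Libraries held 1730164 to 4583777 counts, and the 77 genes together took 0.420 to 0.646% of them. Top1 stood at 117 to 163 CPM in the WT libraries and at 27.1 to 44.0 CPM in the Top1 cKO libraries. The 10 excitatory and pan-neuronal markers summed to 5642 to 7399 CPM in every library, and the 8 microglial markers to at most 18.3 CPM. Single neuronal markers moved both ways within that sum. In WT-Topot against WT-Veh, 1 of the 10 was called higher and 1 lower (1.19% and 3.56% of all genes). With the replicate number as a block these were 4 and 3 (5.62% and 8.71%). In Top1 cKO-Topot against WT-Topot, 2 were higher and 1 lower (2.55% and 1.79%), and with the block 2 and 4 (8.02% and 7.08%). The 9 astrocyte markers summed to 2081 to 4457 CPM in WT-Veh against 847 to 1330 in WT-Topot, where 3 of the 9 were called lower (3.56% of all genes were). They summed to 2294 to 5613 CPM in Top1 cKO-Veh, with 1408 to 2505 in Top1 cKO-Topot, and none of the 9 was at 0 throughout. With the replicate number as a block, WT-Topot had 5 of the 9 lower than WT-Veh (8.71% of all genes), and Top1 cKO-Topot had 4 lower than WT-Veh (7.01%), 2 higher than WT-Topot (8.02%) and 6 lower than its own vehicle (3.02%), where none was called without the block. Top1 cKO-Veh had 1 of the 9 higher than WT-Veh (4.51%). The 8 interneuron markers summed to 802 to 1769, 573 to 1051, 1221 to 1442 and 937 to 1386 CPM in the same order of groups. With the block, 2 of these 8 were higher and 4 lower in WT-Topot against WT-Veh (5.62% and 8.71% of all genes). Whether these shifts play a part in any difference given here was not tested, and in bulk RNA fewer cells of a type and less RNA per cell cannot be told apart. These and all later CPM values are scaled by the TMM factors of edgeR, unless stated otherwise, and 3 counts correspond to 0.687 to 1.73 CPM, depending on the library.

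The 4 libraries with replicate number 3 stood apart in these genes. Cox4i1, a subunit that stabilises the core of cytochrome c oxidase, gave 125.8, 152.1 and 220.6 CPM in WT-Veh replicates 1, 2 and 3. It gave 155.8, 140.5 and 205.6 CPM in WT-Topot. Top1 cKO-Veh followed with 119.7, 135.1 and 303.1 CPM, and Top1 cKO-Topot with 135.8, 150.1 and 277.2 CPM. The third value was the highest in all 4 groups. The replicate number accounted for a median of 46.5% of a gene's variance over the 12 libraries against 22.2% for the group, and its share was the larger in 52 of the 77 genes. These are raw shares, not corrected for the number of groups or replicate numbers, so each includes a part that noise alone would give. For the 34 genes with transcripts under 700 bases, the median log2 difference of replicate 3 from the mean of replicates 1 and 2 was 0.58 in WT-Veh and 0.34 in WT-Topot, while Top1 cKO-Veh had 0.78, and Top1 cKO-Topot 0.70. All 290 genes of that length in the table gave 0.35, 0.23, 0.46 and 0.36, and all 10639 genes with transcripts over 1500 bases gave −0.10, −0.07, −0.09 and −0.07. What sets these libraries apart was not tested. Calls made without them are given for each comparison. Fold changes without them are given for some genes only, and the sums by complex are given only with them.

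**Figure D1:**
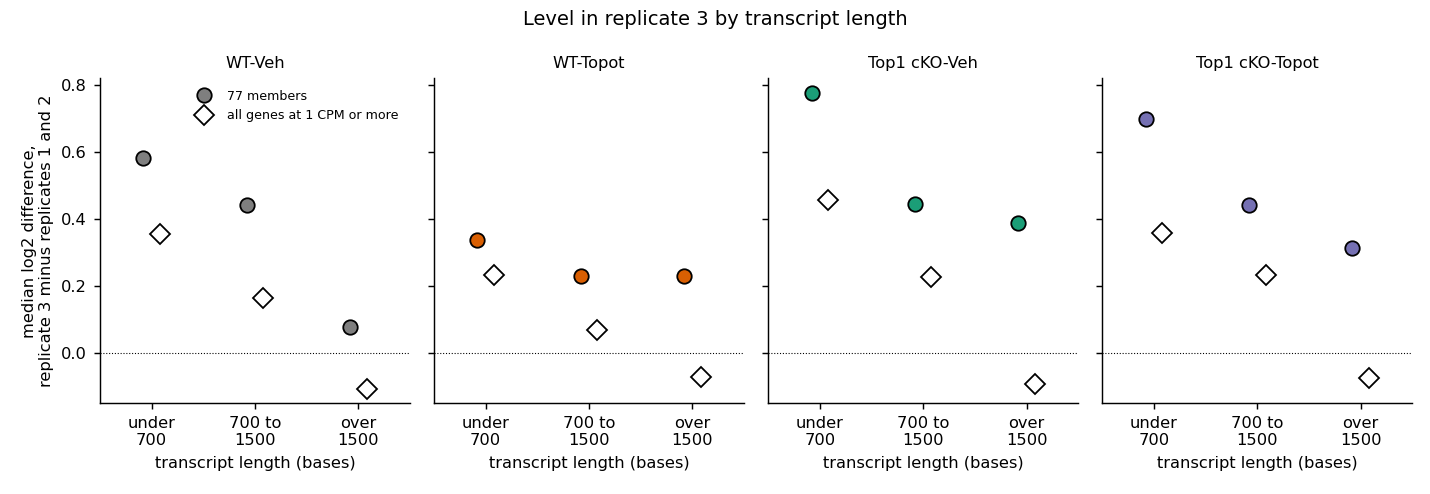
Median log2 difference of the replicate 3 library from the mean of replicates 1 and 2 (vertical axis), by transcript length in bases (horizontal axis), in each group. Filled circles are the oxidative phosphorylation genes (34, 28 and 15 genes) and open diamonds all genes at or above that 1 CPM limit (290, 1906 and 10639 genes). In each group the shortest transcripts sit highest, and the filled circles lie above the diamonds of the same length.

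The genes shared features that the symbols did not select for. Their median length in the genome was 6.75 kb, against 22.1 kb over all 13347 genes at or above 1 CPM with a model, and 74 of 77 spanned under 30 kb. Ndufs4, a complex I subunit needed for its assembly, spanned 100.3 kb (transcript model) and was the longest. Their median transcript was 763 bases against 2825, and 44.2% had a transcript under 700 bases against 2.26% of all genes.

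Promoter windows of RefSeq (build GRCm38.p6, 250 bases before to 50 after each start) were found for 64 of the 77 genes, with 70 windows. The letters GCGCA and GCGC with any base between them, a form of the site of NRF1, a regulator of respiratory genes, stood on either strand in 24.3% of the 70 windows, against 9.28% of the 13752 windows of genes at or above 1 CPM and 4.6% of all 32851 windows. CCGGAAG, the core of an ETS site such as that of GABPA, stood in 21.4% of them against 15.8% and 8.86%. ATGGCGG with AA and any base before it, a form of the YY1 site, stood in 11.4% against 2.87% and 1.36%. The GC box GGGCGG stood in 38.6% against 61.7% and 35.7%, CCAAT in 41.4% against 37.3% and 37.4%, and TATAAA in 7.14% against 7.14% and 13.6%. A match is a description of letters, since no binding was measured. The 100 bases before the start are shown for 4 genes to which the results below return, 5′ to 3′ on the strand of the gene, with matches to the first 3 motifs in capitals: Sdha at chr13:74350241-74350340, Atp5c1 at chr2:10080433-10080532 (both minus strand), Ndufb7 at chr8:83566658-83566757 (plus strand) and Cox6b2 at chr7:4753095-4753194 (minus strand).
Sdha: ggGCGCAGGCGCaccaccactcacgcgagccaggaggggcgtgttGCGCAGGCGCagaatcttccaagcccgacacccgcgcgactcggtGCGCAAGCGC
Atp5c1: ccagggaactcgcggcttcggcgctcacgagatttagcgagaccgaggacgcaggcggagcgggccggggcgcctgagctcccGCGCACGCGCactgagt
Ndufb7: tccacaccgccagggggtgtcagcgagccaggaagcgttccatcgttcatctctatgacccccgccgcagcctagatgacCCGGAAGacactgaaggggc
Cox6b2: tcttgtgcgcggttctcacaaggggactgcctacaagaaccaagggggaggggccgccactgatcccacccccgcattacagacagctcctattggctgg
Sdha carried 3 matches to the NRF1 letters, Atp5c1 carried 1, Ndufb7 carried 1 to the GABPA letters, and Cox6b2 carried none of the 3 motifs in this stretch.

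Levels were compared between genes as CPM per kb of transcript, averaged over the 12 libraries. Cox6a1, the widely expressed isoform of subunit VIa of cytochrome c oxidase, stood highest at 341 CPM per kb, followed by Atp5b at 330 and Atp5a1 at 309, the β and α subunits of the catalytic head of ATP synthase. The highest of complex III was Uqcrq, a small subunit beside cytochrome b, at 203 CPM per kb, the highest of complex II Sdhd, a membrane anchor, at 147, and the highest of complex I Ndufb9 at 120.5. Medians were 31.5 CPM per kb in complex I, 66.3 in complex II, 73.4 in complex III, 24.2 in complex IV and 28.3 in complex V, and within each complex the genes covered a wider range than these medians. Among isoform sets, Atp5g3 stood at 206 CPM per kb and Atp5g1 at 6.06, both of which encode the c ring of ATP synthase, and Cox6a1 exceeded Cox6a2 (9.49). Cox6b1 stood at 63.0 against 8.77 for Cox6b2, and Ndufa4 at 48.4 against 1.30 for Ndufa4l2.

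Low levels went with sequence that occurs elsewhere in the genome. Each transcript was cut into all words of 50 bases, the length of the reads, and each word was searched in mm9 outside the gene. The 35 genes without such a word had a median of 41.5 CPM per kb, the 30 with some but under 25% of their words elsewhere had 32.1, and the 12 with 25% or more had 8.37. Of these 12, 10 stood under 20 CPM per kb, among them Atp5g1 with 86.8% of its words elsewhere, Ndufs5 with 80.0%, Cox7c with 71.5%, Atp5h with 67.9%, Cox5b with 62.7% and Uqcrb with 61.5%. Cox7a2l, with 54.3% of its words elsewhere, stood at 139 CPM per kb. Of the 35 genes without such a word 7 also stood under 20 CPM per kb, as did 10 of the 30. The median transcript was 963 bases in the 35 genes, 685 in the 30 and 610.5 in the 12. How the counting treated reads that fit several places is not given in the sources used here, so the levels of these 12 genes are uncertain, and whether this sets their low levels was not tested.

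**Figure D2:**
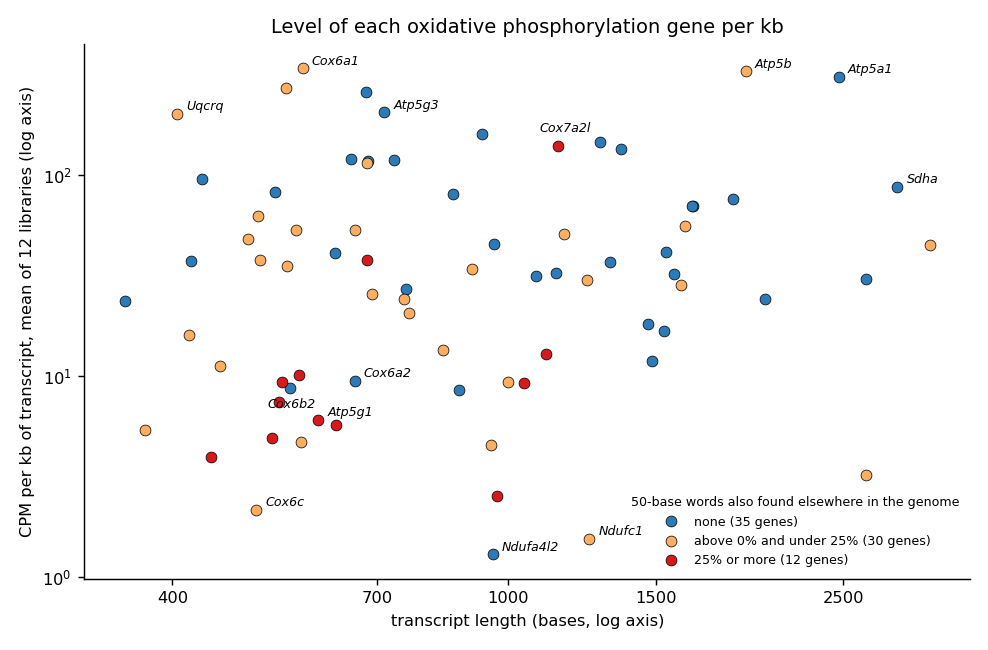
Level of each of the 77 genes in CPM per kb of transcript, mean of 12 libraries (vertical log axis), against transcript length in bases (horizontal log axis). Colours give the share of 50-base words that also occur elsewhere in the genome. Of the 12 genes with 25% or more, 10 lie under 20 CPM per kb, and Cox7a2l is the highest of them at 139.

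By complex, the TMM-scaled sums of complexes I, III and IV moved little between groups. With TMM, WT-Topot stood at 103.1, 103.3 and 102.7% of WT-Veh in complexes I, III and IV. Without the TMM factors these values were 109.7, 109.9 and 109.2%. Complex I summed to 1257 ± 170 CPM in WT-Veh and 1297 ± 149 in WT-Topot, against 1356 ± 342 in Top1 cKO-Veh, with 1288 ± 311 in Top1 cKO-Topot (mean ± SD, n = 3 throughout). Complex III summed to 575 ± 108, 594 ± 83.0, 598 ± 136 and 599 ± 115 CPM in the same order, and complex IV to 749 ± 166, 769 ± 107, 784 ± 276 and 818 ± 248 CPM. For these 3 complexes the group means differed by less than the SD within groups, which includes the shift of the replicate 3 libraries. Within each replicate number, Top1 cKO-Topot stood at 93.9 to 96.7% of Top1 cKO-Veh in complex I, and at 100.1 to 114.6% in complex IV. In complex III, and in the other comparisons of complexes I and IV, the ratios lay on both sides of 100%.

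Complex II and complex V were lowest in Top1 cKO-Topot. The 4 genes of complex II summed to 635, 628 and 637 CPM in WT-Veh and 676, 652 and 620 in WT-Topot. Top1 cKO-Veh followed with 639, 608 and 682 CPM, and Top1 cKO-Topot with 600, 520 and 579. All 3 libraries of Top1 cKO-Topot lay under every other library, at 89.5% of the WT-Veh mean, but not so without the TMM factors, where replicate 1 (600 CPM) lay above WT-Veh replicate 2 (591 CPM), and replicates 1 and 3 (600 and 589 CPM) lay above Top1 cKO-Veh replicate 2 (580 CPM). By gene, the means in WT-Veh and Top1 cKO-Topot were 268.6 and 207.7 CPM for Sdha, 45.1 and 34.7 for Sdhb, and 200.6 and 179.6 for Sdhd. Sdhc went the other way, at 118.8 and 144.3 CPM. The 15 genes of complex V summed to 1997, 2034 and 2310 CPM in WT-Veh and 2116, 1798 and 2214 in WT-Topot. In Top1 cKO-Veh they summed to 1831, 1697 and 2155 CPM, against 1716, 1587 and 2080 in Top1 cKO-Topot. These groups overlapped, with means of 2114 ± 171, 2042 ± 218, 1894 ± 236 and 1794 ± 255. Within each replicate number, Top1 cKO-Veh stood at 83.4 to 93.3% of WT-Veh and Top1 cKO-Topot at 78.0 to 90.0% of it, below it in 3 of 3 for both. Atp5a1 and Atp5b made up 70.3 to 72.7% of the complex V sum in the 4 groups, and Sdha and Sdhd 68.4 to 74.1% of that of complex II. These sums are a description, with no test.

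**Figure D3:**
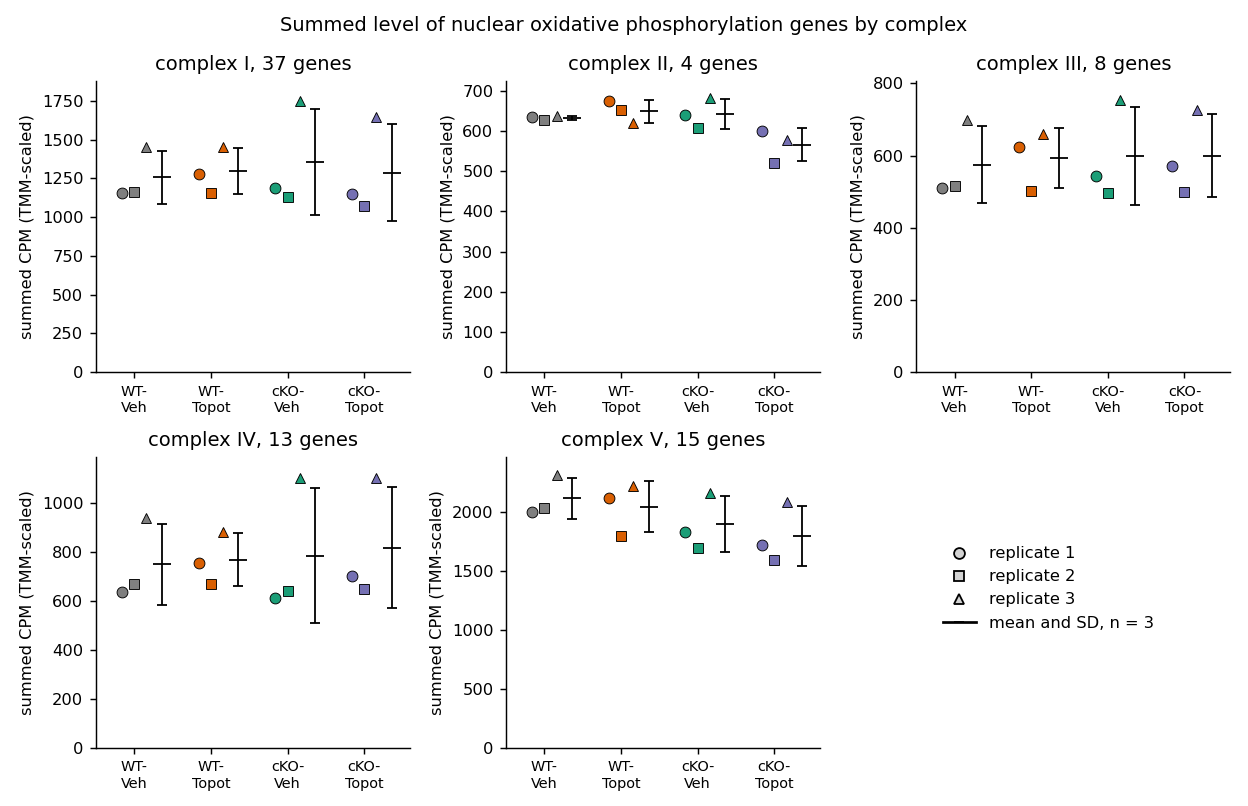
Summed level of the genes of each complex (vertical axis, TMM-scaled CPM, from 0) in every library by group (horizontal axis), with the mean and SD of 3 libraries beside the points. Replicate 3 (triangles) lies highest in most groups, and complex II of Top1 cKO-Topot, at 520 to 600 CPM, lies under all other groups.

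The first question was what topotecan did to these genes in WT neurons. None of the 77 passed the test in WT-Topot against WT-Veh, where a call means a quasi-likelihood p from edgeR under 0.01 once Benjamini-Hochberg adjusted across all 23893 genes. Among the 13718 genes of the whole table that reached a mean of 1 CPM, 1.19% were called higher and 3.56% lower. At an unadjusted p under 0.05 there were 3 higher and 1 lower of the 77 (5.19%, against 21.4% of all genes), DESeq2 called none and edgeR's exact test called 1 lower, Cox6a2. The median log2 fold change was 0.09 against 0.03 over all genes, and the 95% interval lay within a 2-fold change either way for 44 of the 77 genes.

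With the replicate number as a block, 2 of the 77 were called higher (background 5.62%) and 1 lower (background 8.71%). Ndufv3, a flavoprotein subunit of complex I, gave 42.4, 32.4 and 32.2 CPM in WT-Veh and 63.7, 49.5 and 53.5 CPM in WT-Topot. These groups did not overlap, and the log2 fold change was 0.64 (SE 0.22, adjusted p = 0.131 without the block and 0.00733 with it, 0.00733 to 0.436 over 14 alternatives). Cox6b2, an isoform of subunit VIb known from testis, and Cox6a2 were the others and are described together below. Without the 4 replicate 3 libraries 1 gene was called higher and none lower. It was Uqcrh, the hinge subunit of complex III, with 9.36, 11.8 and 29.95 CPM in WT-Veh and 24.5, 27.8 and 24.8 in WT-Topot. Its log2 fold change was 0.65 (SE 0.35) with all libraries and 1.31 without those of replicate 3. Among the other genes at 10 CPM or more, the largest uncalled values were 0.62 for Atp5e (SE 0.52) upwards, and −0.71 for Atp5o (SE 0.35), −0.48 for Ndufs4 (SE 0.30) and −0.41 for Cox7a2 (SE 0.34) downwards.

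Deletion of Top1 in vehicle-treated cultures also left the 77 genes without a call. In Top1 cKO-Veh against WT-Veh, 0.0802% of all genes were called higher and 0.219% lower, so few calls were made at all. An unadjusted p under 0.05 was found for 6 higher and 3 lower of the 77 (11.7%, against 14.2% of all genes), and DESeq2 and edgeR's exact test each called 1 lower, Cox6a2. The median log2 fold change was 0.11 against −0.00 over all genes.

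With the block, 3 genes were called higher (background 4.51%) and 1 lower (background 5.15%), the latter Cox6a2. The 3 were accessory subunits of complex I. Ndufb7 gave 17.0, 15.8 and 12.7 CPM in WT-Veh and 32.5, 24.3 and 49.1 CPM in Top1 cKO-Veh, a log2 fold change of 1.19 (SE 0.30, adjusted p = 0.0961 without the block and 1.95e-05 with it, up to 0.287 over 14 alternatives). Ndufv3 gave 52.4, 46.7 and 74.2 CPM in Top1 cKO-Veh, a log2 fold change of 0.68 (SE 0.24, adjusted p = 0.317 without the block and 0.00507 with it, up to 0.838). Ndufb2 rested on 3, 5 and 7 counts in WT-Veh and 11, 23 and 29 in Top1 cKO-Veh, a log2 fold change of 1.82 (SE 0.63, adjusted p = 0.286 without the block and 0.00541 with it, up to 0.806). In none of the 3 did the groups overlap. Without the replicate 3 libraries 1 gene, Cox6a2, was called lower and none higher. Of the uncalled genes at 10 CPM or more, Atp5e stood at 0.65 (SE 0.54), Atp5f1 at −0.53 (SE 0.25), Ndufb3 at −0.50 (SE 0.32) and Atp5d, the δ subunit of ATP synthase, at −0.41 (SE 0.18). Atp5d gave 174.4, 190.2 and 168.2 CPM in WT-Veh and 150.9, 131.4 and 118.2 in Top1 cKO-Veh, without overlap.

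Topotecan in Top1 cKO cultures was compared with their vehicle next. In Top1 cKO-Topot against Top1 cKO-Veh none of the 77 was called, with 0% of all genes called higher and 0.0146% lower. At an unadjusted p under 0.05 there were 0 higher and 3 lower (3.90%, against 6.85% of all genes), and neither DESeq2 nor edgeR's exact test called any. The median log2 fold change was −0.10 against −0.00 over all genes. A negative value was found for 13 of the 15 genes of complex V, against 6864 of all 13718 genes at 1 CPM or more. The 15 genes were measured in the same libraries and are not independent. With the block none was called higher (background 1.49%) and 1 lower (background 3.02%). This was Atp5j2, the f subunit of ATP synthase, with 12, 26 and 32 counts in Top1 cKO-Veh and 4, 6 and 1 in Top1 cKO-Topot, or 4.69, 5.95 and 16.03 CPM against 1.59, 1.99 and 0.437. Its log2 fold change was −2.58 (SE 0.62, adjusted p = 0.203 without the block and 4.83e-05 with it, up to 0.473 over 13 alternatives). Without Top1 cKO-Veh replicate 1 it was also called, at −2.88. Without the replicate 3 libraries 1 gene was called lower, Cox6b2, at −3.05. The largest uncalled values at 10 CPM or more were 0.55 for Ndufb8 (SE 0.37), 0.31 for Cox7a2 (SE 0.42) and 0.19 for Uqcrc1 (SE 0.20) upwards, and −0.73 for Atp5s (SE 0.33), −0.54 for Ndufs4 (SE 0.33) and −0.48 for Ndufa9 (SE 0.25) downwards.

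Between the 2 topotecan groups, deletion was again without a call among the 77. In Top1 cKO-Topot against WT-Topot, 2.55% of all genes were called higher and 1.79% lower. At an unadjusted p under 0.05 there were 3 higher and 10 lower of the 77 (16.9%, against 23.4% of all genes), and neither DESeq2 nor edgeR's exact test called any. The median log2 fold change was −0.06 against −0.02 over all genes, and −0.28 for complex V.

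With the block, none was called higher (background 8.02%) and 5 were called lower (background 7.08%), 6.49% of the 77 being close to that background. Sdha, the flavoprotein of complex II that oxidises succinate, gave 312.7, 327.7 and 244.5 CPM in WT-Topot and 231.4, 223.8 and 167.9 in Top1 cKO-Topot. Its log2 fold change was −0.51 (SE 0.17, adjusted p = 0.104 without the block and 2.26e-04 with it, up to 0.313 over 14 alternatives). Atp5c1, the γ shaft that turns within the head of ATP synthase, gave 69.4, 59.2 and 87.8 CPM against 41.8, 34.9 and 52.9, and Atp5f1, the b subunit of its stator, gave 45.2, 41.2 and 68.5 against 35.5, 23.2 and 36.7. In these 3 genes the groups did not overlap. The log2 fold change of Atp5c1 was −0.75 (SE 0.22, adjusted p = 0.0445 without the block and 2.87e-04 with it, up to 0.231), and that of Atp5f1 was −0.71 (SE 0.25, adjusted p = 0.112 and 0.00337, up to 0.567). Ndufs1, the largest iron-sulfur subunit of complex I, gave 77.1, 82.2 and 103.2 CPM against 54.2, 61.8 and 65.6, also without overlap, at −0.54 (SE 0.19, adjusted p = 0.136 and 0.00711, up to 0.522). The fifth was Cox6b2, which was also the only call, at −3.19, without the replicate 3 libraries. Atp5c1 was called without Top1 cKO-Topot replicate 3, at −0.91. Uncalled in either fit were Atp5s at −0.69 (SE 0.31), Ndufb7 at 0.55 (SE 0.25), Atp5o at 0.40 (SE 0.41) and Cox7a2 at 0.86 (SE 0.39). Cox7a2 gave 9.38, 11.7 and 17.6 CPM in WT-Topot and 11.95, 14.6 and 44.2 in Top1 cKO-Topot, the highest value being a replicate 3 library.

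Both treatments together were set against the untreated control last, in Top1 cKO-Topot against WT-Veh, which shares its libraries with the comparisons above. Here 1 of the 77 genes was called without a block, Cox6a2, which was lower (background 2.11%), and none was higher (background 0.824%). With an unadjusted p under 0.05, 4 of the 77 were higher and 6 lower (13%, against 22.3% of all genes), DESeq2 called 1 lower, and edgeR's exact test called 1 lower and 1 higher (Ndufb7). The median log2 fold change was 0.02, the same as over all genes. With the block 2 were called higher (background 5.82%) and 3 lower (background 7.01%).

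The 2 higher with the block were small complex I subunits. Ndufb7 gave 31.5, 28.2 and 34.1 CPM in Top1 cKO-Topot, above all 3 WT-Veh libraries, at a log2 fold change of 1.051 (SE 0.27, adjusted p = 0.0352 without the block and 0.00123 with it, up to 0.110 over 14 alternatives). Ndufa1, encoded on the X chromosome, gave 1.17, 2.63 and 4.03 CPM in WT-Veh and 4.38, 3.65 and 25.4 in Top1 cKO-Topot. These groups overlapped, and the highest value was that of replicate 3 (log2 fold change 2.17, SE 0.68, adjusted p = 0.0839 and 0.00368, up to 0.914 over 13 alternatives). Leaving out WT-Veh replicate 3 (2.59) or Top1 cKO-Topot replicate 1 (2.54) made it a call. Both of these fits kept the high value of Top1 cKO-Topot replicate 3. Beside Cox6a2, Ndufs1 and Atp5f1 were lower with the block. Ndufs1 gave 94.5, 96.0 and 95.03 CPM in WT-Veh, all above Top1 cKO-Topot (−0.63, SE 0.20, adjusted p = 0.0869 and 0.00360, up to 0.310). Atp5f1 gave 47.1, 49.5 and 77.8 CPM in WT-Veh, also without overlap (−0.84, SE 0.26, adjusted p = 0.0823 and 0.00202, up to 0.369). Without the replicate 3 libraries, Cox6a2 was the only call. Atp5e at 0.76 (SE 0.49), Ndufv3 at 0.60 (SE 0.24) and Atp5c1 at −0.61 (SE 0.24) passed in neither fit.

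**Figure D4:**
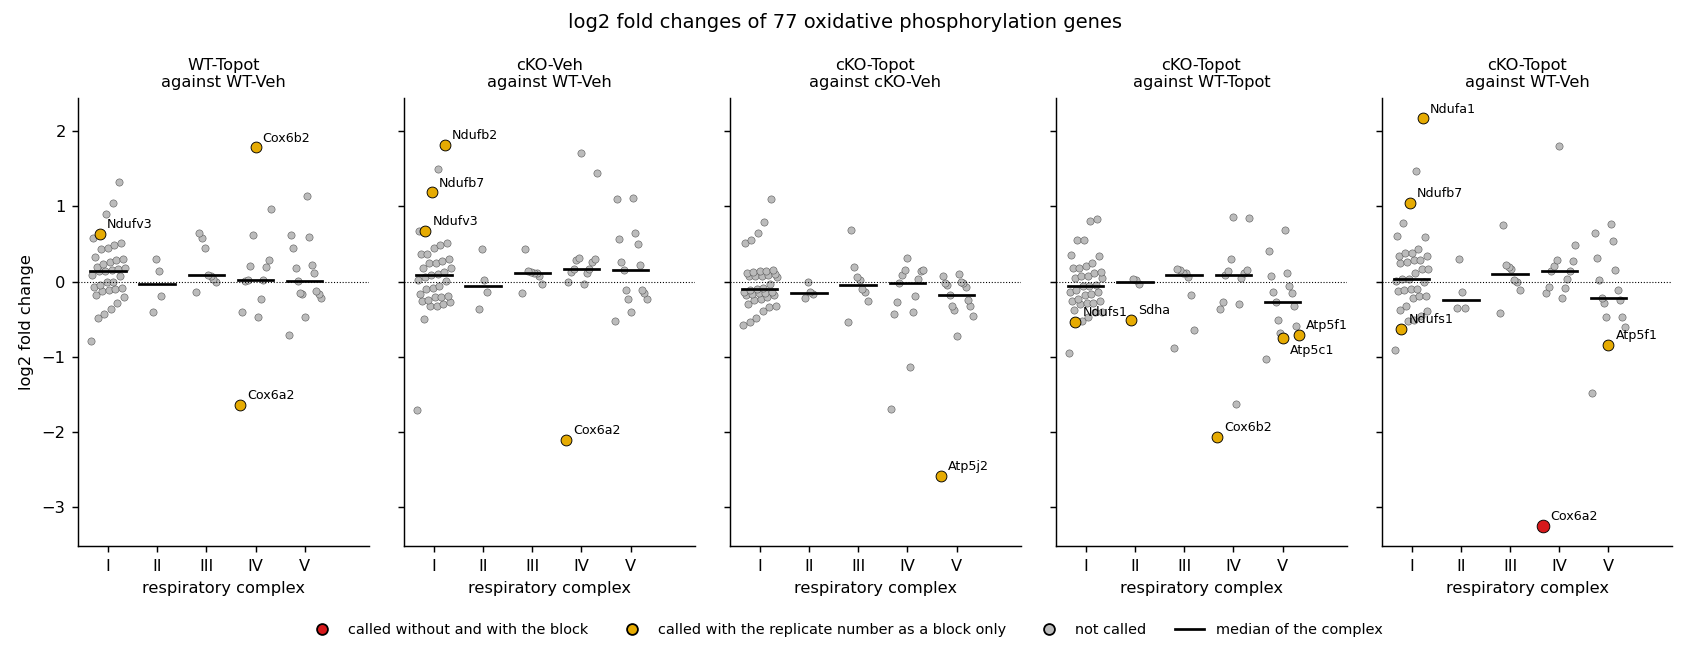
log2 fold change of each of the 77 genes (vertical axis) by respiratory complex (horizontal axis) in 5 comparisons, with the median of each complex as a bar. Red marks the gene called without and with the block, Cox6a2 at −3.26, and yellow the genes called only with the replicate number as a block. All other genes are grey, and the medians of the complexes lie near 0.

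Cox6a2, the heart and skeletal muscle isoform of subunit VIa of cytochrome c oxidase, had the largest log2 fold change of the 77 genes over the 5 comparisons between groups. It gave 16.4, 15.3 and 14.4 CPM in WT-Veh and 4.36, 7.73 and 2.14 in WT-Topot. Top1 cKO-Veh had 4.30, 5.04 and 0.501 CPM, while Top1 cKO-Topot had 1.20, 1.33 and 2.19. All WT-Veh libraries lay above all 9 others, which overlapped among themselves. The counts behind these levels were 56, 35 and 25 in WT-Veh, followed by 13, 27 and 5 (WT-Topot), 11, 22 and 1 (Top1 cKO-Veh), then 3, 4 and 5 (Top1 cKO-Topot). Top1 cKO-Topot against WT-Veh gave a log2 fold change of −3.26 (SE 0.45, adjusted p = 1.07e-04 by edgeR), and the call was made under all 14 alternatives, with values of −3.58 to −3.12. WT-Topot against WT-Veh gave −1.64 (SE 0.40, adjusted p = 0.0166, 1.51e-05 with the block, up to 0.0637 over 14 alternatives, 4 of which made a call). It was called without WT-Veh replicate 3 (−1.68) or without WT-Topot replicate 2 (−2.19). Top1 cKO-Veh against WT-Veh gave −2.11 (SE 0.47, adjusted p = 0.0507, 3.40e-08 with the block, up to 0.148, called in 4 of 14). Cox6a2 lies at chr7:135348950-135349880 (mm9, minus strand), spans 0.931 kb, and none of its 50-base words occurs elsewhere. Its paralog Cox6a1 gave 161.8, 166.1 and 247.6 CPM in WT-Veh and 202.3, 147.8 and 273.7 in Top1 cKO-Topot, a log2 fold change of 0.14, and its groups overlapped throughout.

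Cox6b2 gave 4.10, 0.877 and 1.73 CPM in WT-Veh and 14.7, 2.86 and 7.71 in WT-Topot. Top1 cKO-Veh had 10.95, 5.27 and 3.51 CPM, while Top1 cKO-Topot had 1.20, 0.664 and 4.37. It was higher than WT-Veh of the same number in 3 of 3 WT-Topot libraries, and lower than WT-Topot in 3 of 3 Top1 cKO-Topot libraries, although the groups overlapped. Against Top1 cKO-Veh of the same number, Top1 cKO-Topot was lower in replicates 1 and 2 and higher in replicate 3. In WT-Topot against WT-Veh the log2 fold change was 1.79 (SE 0.60, adjusted p = 0.116, 6.83e-04 with the block, up to 0.610 over 14 alternatives), and in Top1 cKO-Topot against WT-Topot it was −2.07 (SE 0.61, adjusted p = 0.0492, 9.60e-04 with the block, up to 0.334). The first was called without WT-Veh replicate 1 (2.69), the second without WT-Topot replicate 2 (−2.49) or Top1 cKO-Topot replicate 3 (−3.14). Cox6b1, the widely expressed isoform, gave 27.2, 24.1 and 34.0 CPM in WT-Veh and 34.5, 26.9 and 42.4 in WT-Topot, a log2 fold change of 0.29 that passed in neither fit.

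**Figure D5:**
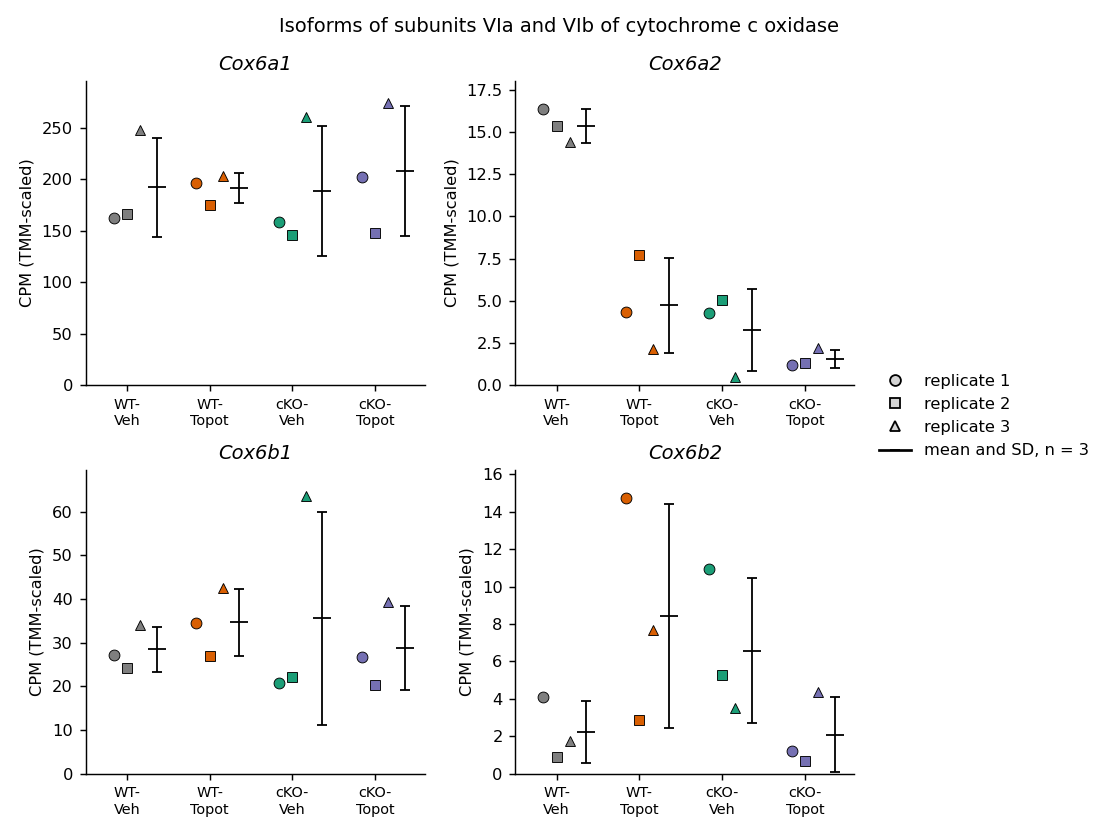
Level in TMM-scaled CPM (vertical axes, from 0) of the isoform pairs Cox6a1 and Cox6a2, and Cox6b1 and Cox6b2, in every library by group, with the mean and SD of 3 libraries. All 3 WT-Veh libraries of Cox6a2, at 14.4 to 16.4 CPM, lie above the other 9, and Cox6b2 is spread from 0.664 to 14.7 CPM.

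Whether the effect of topotecan differed between WT and Top1 cKO cultures was asked with the interaction in all 12 libraries. None of the 77 genes was called in either direction (background 0.693% higher and 0.0656% lower). At an unadjusted p under 0.05 there were 0 higher and 5 lower (6.49%, against 13.4% of all genes), and DESeq2 called none. The median was −0.10 on the log2 scale against −0.03 over all genes. With the block none was called higher (background 4.24%) and 1 lower (background 2.66%), which was Cox6b2 at −3.57 (SE 0.68, adjusted p = 2.13e-04, up to 0.3 over 17 alternatives) and −3.49 (SE 0.97, adjusted p = 0.0931) without the block. Without the replicate 3 libraries it was −4.73 and called (adjusted p = 0.00166). WT-Veh and Top1 cKO-Topot each held libraries with only 2 or 3 counts of this gene. Atp5s at −1.18 (SE 0.43), Atp5sl at −0.85 (SE 0.34), Uqcrh at −0.76 (SE 0.52), Cox7a2 at 0.71 (SE 0.60), Atp5o at 0.52 (SE 0.57) and Ndufv1 at 0.52 (SE 0.27) were the largest values at 10 CPM or more, and none was called with or without the block.

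The core subunits of each complex differed less between groups. Ndufv1, which carries the NADH site of complex I, had log2 fold changes of −0.37 to 0.34 over the 5 comparisons and was not called with or without the block. Uqcrc1 and the Rieske protein gene Uqcrfs1 of complex III gave −0.03 to 0.19 and 0.06 to 0.22. In complex IV Cox4i1 gave 0.02 to 0.20 Cox5a −0.24 to 0.14 and Cox5b −0.47 to 0.29, Sdhb of complex II gave −0.40 to 0.03, and in complex V Atp5b gave −0.15 to 0.01. Atp5a1 gave 846.4, 824.0 and 881.2 CPM in WT-Veh and 714.6, 648.9 and 752.8 in Top1 cKO-Topot. These groups did not overlap, yet the log2 fold change of −0.25 was not called in either fit.

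Genes with related roles were read in the same fits, first without the block. The 9 further genes of the chain and its carriers, such as Cyc1, Cycs and Slc25a4, had no call in any of the 5 comparisons, nor did the 36 measured assembly factors or the 17 genes of pyruvate dehydrogenase and the citric acid cycle. By edgeR at an unadjusted p under 0.05 there were 0 to 1, 0 to 5 and 0 to 4 genes of these lists in a comparison. Of the 71 measured mitochondrial ribosomal protein genes, Mrpl11 was lower in Top1 cKO-Topot against WT-Topot (log2 fold change −1.14, adjusted p = 0.00904) and no other call was made without the block. Of the 16 measured glycolytic genes, Aldoa was the only call without the block, higher in Top1 cKO-Topot than in WT-Topot (723 ± 108 against 431 ± 78.6 CPM, log2 fold change 0.74, SE 0.16, adjusted p = 0.00683).

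Of the 14 regulators of mitochondrial biogenesis, Ppargc1a, a coactivator that drives respiratory genes, was the only call without the block, lower in WT-Topot than in WT-Veh. It gave 74.3, 135 and 73.7 CPM in WT-Veh and 33.2, 40.9 and 39.0 in WT-Topot, without overlap (log2 fold change −1.32, SE 0.24, adjusted p = 0.00180). It gave 63.7, 76.0 and 44.1 CPM in Top1 cKO-Veh and 49.0, 58.1 and 43.7 in Top1 cKO-Topot, and both were called lower than WT-Veh only with the block (adjusted p = 0.00230 and 2.71e-04). Gabpb2, which encodes a partner of the ETS factor GABPA, went the other way. It gave 4.10, 4.38 and 5.76 CPM in WT-Veh, below all 9 other libraries, with means of 12.6 ± 2.31 CPM in WT-Topot, against 13.1 ± 1.64 in Top1 cKO-Veh, with 13.7 ± 1.91 in Top1 cKO-Topot. It was higher than WT-Veh in each of these only with the block (log2 fold changes without it 1.43, 1.48 and 1.57, blocked adjusted p = 8.30e-04, 3.34e-04 and 8.18e-04).

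With the block more genes of these lists were called. In WT-Topot against WT-Veh, 1 assembly factor was higher (Tmem126b) and 1 lower (Ttc19), 2 glycolytic genes were lower (Aldoa and Pgk1), and 1 ribosomal protein gene was higher and 1 lower, where 5.62% of all genes were higher and 8.71% lower. In Top1 cKO-Veh against WT-Veh, 3 glycolytic genes (Gpi1, Pfkl and Eno1) and the carrier gene Slc25a4 were higher, against 4.51% of all genes. Top1 cKO-Topot had 2 lower glycolytic genes against its own vehicle (Hk2 and Ldha, 3.02% of all genes being lower). Against WT-Topot, where 8.02% of all genes were higher and 7.08% lower, it had 3 higher glycolytic genes (Hk1, Pfkp and Aldoa), 1 lower (Pfkm), lower values of Pdha1 and Ogdh from the cycle list, 1 lower assembly factor (Ndufaf5), 1 higher regulator (Gabpb1) and 1 lower ribosomal protein gene. Against WT-Veh, where 5.82% were higher and 7.01% lower, it had 1 higher glycolytic gene (Eno1), a lower value of Ogdh from the cycle list and 1 lower ribosomal protein gene. In the interaction, Ppargc1a and 1 ribosomal protein gene were higher, against 4.24% of all genes.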

How the data were processed

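RNA-seq counts of 12 cortical neuron cultures, 3 in each of 4 groups, were analysed. Per the study's methods, the authors cleaned 50-base read pairs (TagDust), mapped them with default TopHat settings on mm9 and discarded rRNA reads. They deposited unnormalised counts, summed for each gene symbol over its RefSeq exons. The counting program, its strand setting and the versions are not given in the sources used here, so overlapping and antisense genes cannot be told apart. Groups and replicate numbers came from the labels, which do not say what a number stands for, and the study gives the 3 libraries of a group as 3 cultures.

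Each comparison was fitted on its 6 libraries, and the interaction on all 12, with edgeR 4.0.16 (glmQLFit and glmQLFTest, TMM, no filter, 23893 genes, R 4.3.3, limma 3.58.1), with Benjamini-Hochberg adjustment and a threshold of 0.01. Alternatives were a replicate block, DESeq2 1.42.0 (size factors, Wald test), no scaling, filterByExpr, edgeR's exact test, a fit of all 12 libraries, and each library left out. Leaving out replicate 3 was chosen after seeing the data. Same-numbered libraries deviated together from their group means (18 pairs, r = 0.261 to 0.484 over 13718 genes). Over the 77 genes alone these pairs gave r = −0.0967 to 0.565. Different numbers gave −0.382 to −0.049 over the 13718 genes. Subtracting the group means ties these values to those of the same number, so they are no separate support. The numbers were taken to pair the libraries, and blocked values stand beside results they alter. The fit without the block was tried on simulated counts for WT-Topot against WT-Veh and for the interaction. The simulation held no replicate effect and changed only genes with more counts. It therefore does not cover calls made with the block or genes with few counts. CPM values carry counting error on top of the spread between cultures, and precision is set by 1730164 to 4583777 counts per library.

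CPM are counts scaled to a common library total. Transcript lengths came from the mm9 annotation (GENCODE, longest coding sequence), gene spans from the same transcripts, and promoter letters from RefSeq. The log2 differences of replicate 3 used a pseudocount of 1 CPM. The genes and lists were chosen with earlier results of these data known. Genes named were those called with or without the block, the 3 largest changes each way at 10 CPM or more where fewer than 3 were called, core subunits, isoform sets and the highest gene of each complex. From related lists, genes called without the block were named, and most of those called with it, ribosomal protein genes excepted. No sequence was shown for members without a promoter entry, such as Cox6a2 and Ndufs1. Results for a few genes that the rule names are not reported here.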

Additional observations from a re-analysis of the deposited data

Results flagged for a closer look

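The response of Cox6b2 to topotecan differed between WT and Top1 cKO cultures in the test of the difference itself, with the replicate number as a block. The log2 fold change of Top1 cKO-Topot against Top1 cKO-Veh minus that of WT-Topot against WT-Veh was −3.573 (adjusted p = 2.13e-04, edgeR). The levels were 4.10, 0.877 and 1.73 CPM in WT-Veh against 14.7, 2.86 and 7.71 in WT-Topot, and 10.95, 5.27 and 3.51 in Top1 cKO-Veh against 1.20, 0.664 and 4.37 in Top1 cKO-Topot. Without the block the difference was −3.49 and was not called (adjusted p = 0.0931). In Top1 cKO cultures the level was lower with topotecan in replicates 1 and 2, but higher in replicate 3 (3.51 against 4.37 CPM). With the block, Cox6b2 was the only 1 of the 77 genes called lower, where 2.66% of all genes were. Its counts ran from 2 to 44 per library.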

How the results depend on the processing

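The 77 genes had 0 calls in 11 of 12 tests (5 comparisons and the interaction, each higher and lower), and 1, Cox6a2, in Top1 cKO-Topot against WT-Veh. With the replicate block the counts higher and lower were 2 and 1 in WT-Topot against WT-Veh, 3 and 1 in Top1 cKO-Veh against WT-Veh, and for Top1 cKO-Topot 0 and 1 against its own vehicle, 0 and 5 against WT-Topot and 2 and 3 against WT-Veh, with 0 and 1 for the interaction. edgeR's exact test called 1 lower in WT-Topot and 1 lower in Top1 cKO-Veh against WT-Veh, and 1 higher in Top1 cKO-Topot against WT-Veh, and DESeq2's Wald test called 1 lower in Top1 cKO-Veh against WT-Veh. Leaving out single libraries gave 0 to 1 higher and 0 to 1 lower in WT-Topot against WT-Veh, 0 to 1 lower in Top1 cKO-Topot against Top1 cKO-Veh, 0 to 2 lower against WT-Topot and 0 to 1 higher against WT-Veh. Without the 4 replicate 3 libraries, an alternative chosen after seeing the data, 1 was higher in WT-Topot against WT-Veh, and 1 was lower in Top1 cKO-Veh against WT-Veh, in Top1 cKO-Topot against WT-Topot and against Top1 cKO-Veh, and in the interaction. With no scaling factor the complex II sum of WT-Veh was 621.28 CPM in place of 633.07. The sums of WT-Topot then stood at 102.9 to 109.9% of WT-Veh across complexes I to V, against 96.6 to 103.3% with TMM. Among all counts, medians and sums under the alternatives, 281 values stayed the same and 28 moved, and the cause was not tested. Staying the same meant an equal or similar count, or a median or sum that shifted by no more than the spread within groups. Depth limited 23 genes under 10 CPM, and the 95% interval lay within a 2-fold change for 27 to 49 of the 77 genes.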
